A study of Solanum lycopersicum with 6 samples.

Results

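The plastid genome genes of tomato leaves were examined in wild type (WT) and in *kyp* plants. They are the 142 entries of the count table whose identifiers carry a plastid locus tag, of 35821 entries in all, and were chosen by identifier alone. They comprise 87 protein-coding entries, 45 tRNA entries, 8 rRNA entries and 2 pseudogene entries. The rRNA entries were taken by locus tag: the gene table labels 4 of them rRNA and 4, LyesC2r005 to LyesC2r008, other. An entry is called a row below, because 20 symbols are listed on more than 1 row, either as copies or as separate exons.

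The libraries came from the fourth leaf of 4-week-old plants of cultivar M82, grown at 24 °C in long days under normal conditions. Both genotypes share the M82 background, and they differ in the *kyp* mutation, which impairs deposition of H3K9me2, a methylation mark of nuclear heterochromatin. The study used the pair of genotypes to ask how this mark and H3K9 acetylation shape the nuclear genome, and it sequenced 3 libraries per genotype from total RNA. Library totals lay between 7283885 and 11012421 counts. The nuclear identifiers were paired with no gene names here, so the level of the mutated gene was not analysed. The 9 plastid genes taken as markers of green leaf tissue, from rbcL to ndhB, had counts in each of the 6 libraries, and the lowest count of such a row was 16.

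Plastids carry a small circular genome of their own, inherited from a cyanobacterial ancestor. It encodes the core subunits of both photosystems, the cytochrome b6f complex, ATP synthase and the NDH complex, the large subunit of Rubisco, and much of the machinery that transcribes and translates these genes, whereas most other plastid proteins are imported from the cytosol. The plastid DNA is not wrapped in histones, its genes are largely transcribed as multi-gene units by a bacterial-type and a phage-type RNA polymerase, and the rRNA genes lie in a repeat that is present in a pair of inverted copies.

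Plastid genes made up less than 1% of the counted reads in every library, and the share was lower in *kyp*. In WT it was 0.652%, 0.714% and 0.881% of library counts in replicates 1, 2 and 3. In *kyp* it was 0.552%, 0.621% and 0.556%. Every *kyp* library thus lay below every WT library, although the highest *kyp* and the lowest WT value were close. The means were 0.749% ± 0.119 (SD, n = 3) in WT and 0.576% ± 0.0388 (SD, n = 3) in *kyp*, a ratio of 0.770. The difference of -0.172 percentage points was -0.106 without WT replicate 3. The two-sided exact permutation test gave p = 0.1, the smallest p that 3 against 3 libraries allow, and 0.1 after adjustment over the 3 organelle measures tested. A share of library counts also depends on the other RNA counted and on library preparation. In bulk samples, fewer plastids or green cells, less plastid RNA per cell and more of the other RNA cannot be told apart.

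The other organelle went the opposite way. The 72 mitochondrial rows held 0.0436% ± 0.00212 (SD, n = 3) of counts in WT and 0.0928% ± 0.0210 in *kyp*, again with no overlap between genotypes and with an exact permutation p of 0.1. Counts on the plastid rRNA rows were a small share of the libraries, 0.00655% ± 0.00218 in WT and 0.00329% ± 0.000518 in *kyp*. Leaving them out could therefore change the plastid share little, and it was then 0.742% in WT and 0.573% in *kyp*. The rows of atpB and atpE held most of the plastid counts. Without that pair the plastid share was 0.192% ± 0.0558 in WT and 0.148% ± 0.0131 in *kyp*. The genotypes then overlapped (exact permutation p = 0.3).

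**Figure D1:**
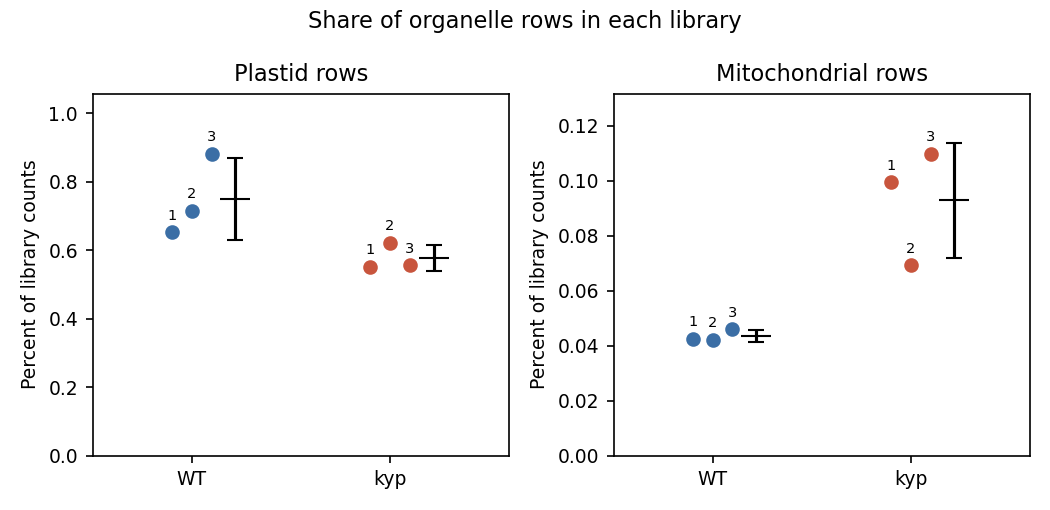
Percent of library counts on plastid rows (left) and on mitochondrial rows (right) in each WT and *kyp* library, with replicate numbers beside the points and the mean ± SD (n = 3) as bars. The plastid share lay between 0.552% and 0.621% in *kyp* and between 0.652% and 0.881% in WT, and the mitochondrial share was higher in each *kyp* library than in any WT library.

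A pair of genes dominated the plastid counts. The gene atpB encodes the beta subunit of the catalytic head of the plastid ATP synthase, and atpE, directly behind it in the same transcription unit, encodes the epsilon subunit that regulates the head. The row of atpB alone took 59.8%, 56.6% and 53.6% of plastid counts in the WT libraries and 57.4%, 57.2% and 53.7% in the *kyp* libraries. Together, atpB and atpE held between 71.4% and 78.3% of plastid counts. The ratio of atpB to atpE counts was 3.13 ± 0.119 (SD, n = 3) in WT and 3.07 ± 0.0391 in *kyp*.

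Because a longer gene collects more reads, levels were also divided by gene length, as CPM (counts scaled to a common library size, with TMM factors) per kb of gene length, averaged over all 6 libraries. On this scale atpE came first with 2992 CPM per kb, followed by atpB with 2491. The next protein-coding row was psbM, a small subunit of photosystem II, with 498 CPM per kb. The order then ran through psbL with 158 and psbF with 156, both small photosystem II subunits, rpl32, a protein of the large ribosomal subunit, with 137, and clpP, the proteolytic subunit of the Clp protease, with 107. The rows of psbM, psbL, psbF and rpl32 are only 105, 117, 120 and 168 bases long. The length used is the gene span, which includes introns, so this order is only a rough guide to level. The level per kb of rbcL, the Rubisco large subunit, was 94.5 CPM, and that of psbA, which encodes the D1 protein of photosystem II, was 63.4 CPM. Thus atpB and atpE, but no other ATP synthase gene, stood apart from the rest: atpA, the alpha subunit of the same catalytic head, reached 43.9 CPM per kb, atpF 42.8, atpH 31.0 and atpI 3.11. The ratio of atpB to atpA counts was 55.3 ± 5.96 (SD, n = 3) in WT and 57.8 ± 4.30 in *kyp*. The strand setting of the counting was not given in the sources used here, so reads from the opposite strand of a gene cannot be told apart from its own. Whether all reads on the atpB and atpE rows came from the plastid genome, and not from copies of plastid sequence elsewhere, was not tested.

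**Figure D2:**
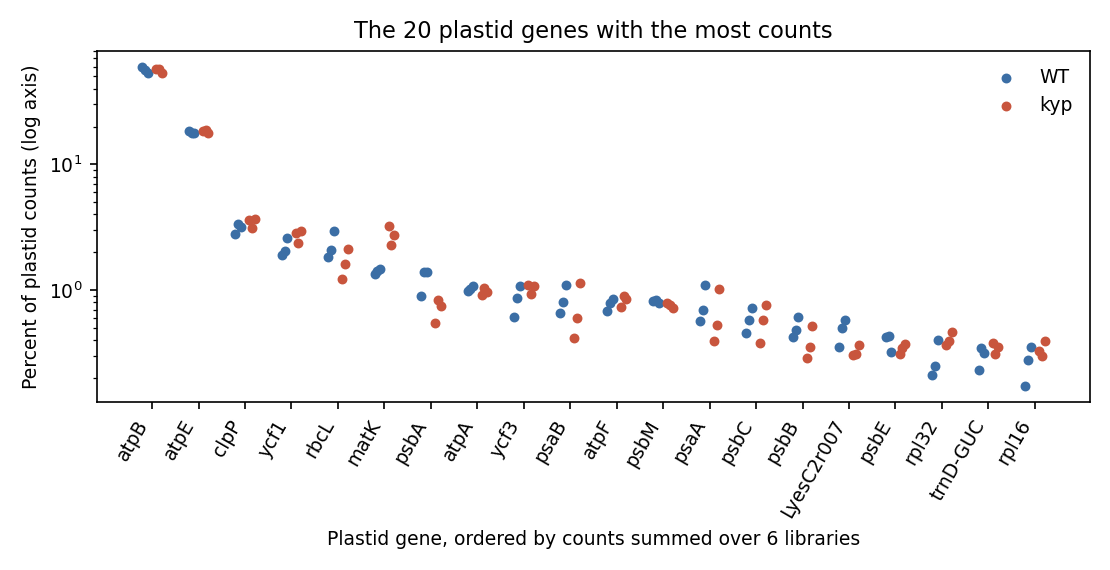
Percent of plastid counts taken by the 20 plastid rows with the most counts, on a log axis, with 1 point per library (ycf1 is the protein-coding row). In all 6 libraries atpB held most of the plastid counts, at 53.6% to 59.8%, and the *kyp* points of matK lie above its WT points while those of psbA lie below.

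**Figure D3:**
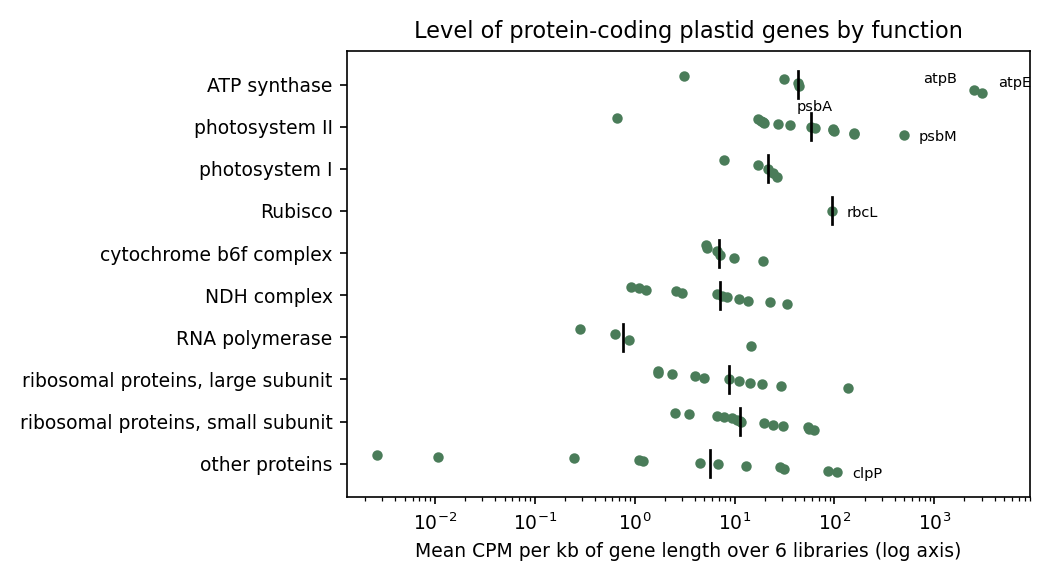
Mean level of each protein-coding plastid row with at least 1 count, in CPM per kb of gene length over 6 libraries on a log axis, by functional group, with the group median as a vertical line. The rows of atpE (2992) and atpB (2491) lie to the right of all others, and psbM (498) comes next.

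The 10 rows with the most counts were atpB, atpE, clpP, ycf1, rbcL, matK, psbA, atpA, ycf3 and psaB. The protein-coding row of ycf1 is the longest gene of the 10 and encodes a component of the protein import machinery of the inner envelope. Its second row, a truncated pseudogene, had 6 counts in all libraries together, whereas the protein-coding row had 8951. These 10 rows held 87.7% ± 1.54 (SD, n = 3) of plastid counts in WT and 88.4% ± 1.46 in *kyp*, a difference within the spread of the replicates. The number of rows needed to reach 90% of plastid counts was 11, 14 and 15 in WT and 10, 12 and 14 in *kyp*. The exact permutation p was 1 for the share of the first gene, 1 for that of the first 5, 0.7 for that of the first 10, and 0.6 for the number of rows holding 90%, and all adjusted values over the 5 measures were 1. When atpB and atpE were set aside, a choice made after their values were seen, the counts left over were held by fewer rows in *kyp*. The first 5 rows then took 40.5% ± 0.0639 (SD, n = 3) in WT and 44.2% ± 2.83 in *kyp*, and 8 rows held 50% in each WT library, against 6, 7 and 7 rows in the *kyp* libraries. For both measures the exact permutation p was 0.1, the smallest possible, and 0.125 after adjustment. The first 5 rows left were clpP, ycf1, rbcL, matK and psbA. Of these, matK, the only plastid row called higher in *kyp*, held on average 1.40% of all plastid counts in WT and 2.75% in *kyp*. The mean shares of clpP and ycf1 were also higher in *kyp*, and those of rbcL and psbA were lower. How far the difference rests on matK was not tested.

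Changes of single genes were tested with edgeR across all genes of the table, nuclear genes included. Of the 142 plastid rows, 87 passed the filter on low counts, 75 of them protein-coding, and the highest count of any of the other 55 rows in a library was 21. At an adjusted p under 0.05, 13 of the 87 rows differed between genotypes, or 14.9%, where 24.9% of all tested genes did. Of these, 12 fell in *kyp*, or 13.8% against 10.2% of all tested genes, and 1 rose, or 1.15% against 14.8%. The called share of the plastid rows was thus below that of the table as a whole for higher levels and somewhat above it for lower levels. Groups did not overlap, with *kyp* below WT, in 22 rows, or 25.3% against 20.5% of all tested genes, and with *kyp* above WT in 1 row, against 21.9%.

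The shift was broad and shallow. The log2 fold change of *kyp* over WT was below 0 in 77 of the 87 tested rows, or 88.5%, where 50.9% of all tested genes were below 0. The plastid rows come from the same libraries, so they are not independent measurements. The median over the plastid rows was -0.42, with quartiles of -0.63 and -0.19, beside a median of -0.01 over all tested genes. Without WT replicate 3 the plastid median was -0.19, and without any other single library it was between -0.53 and -0.34. WT libraries varied more than *kyp* libraries, with a median coefficient of variation of 27.2% against 16.4% over the tested plastid rows, and WT replicate 3, which had the highest plastid share, often gave the highest value. The count of 13 calls depended on single libraries: it was 1 without WT replicate 2, 5 without WT replicate 3, 3 without *kyp* replicate 1 and 5 without *kyp* replicate 3. Of the 13 rows themselves, 8 were also called without WT replicate 1, 1 without WT replicate 2, 4 without WT replicate 3, 3 without *kyp* replicate 1, 11 without *kyp* replicate 2 and 4 without *kyp* replicate 3. In a fit chosen after seeing the data, without both WT replicate 3 and *kyp* replicate 1, which had the highest and the lowest plastid share, 2 rows were called, both higher in *kyp* (matK and rpl32), and the median was -0.13. When libraries were scaled to their plastid totals, so that only the composition within the plastid was compared, 2 rows were called lower and 1 higher, and the median of the plastid rows was -0.10. Since atpB and atpE held between 71.4% and 78.3% of these totals, this scaling mainly compares a row with that pair.

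**Figure D4:**
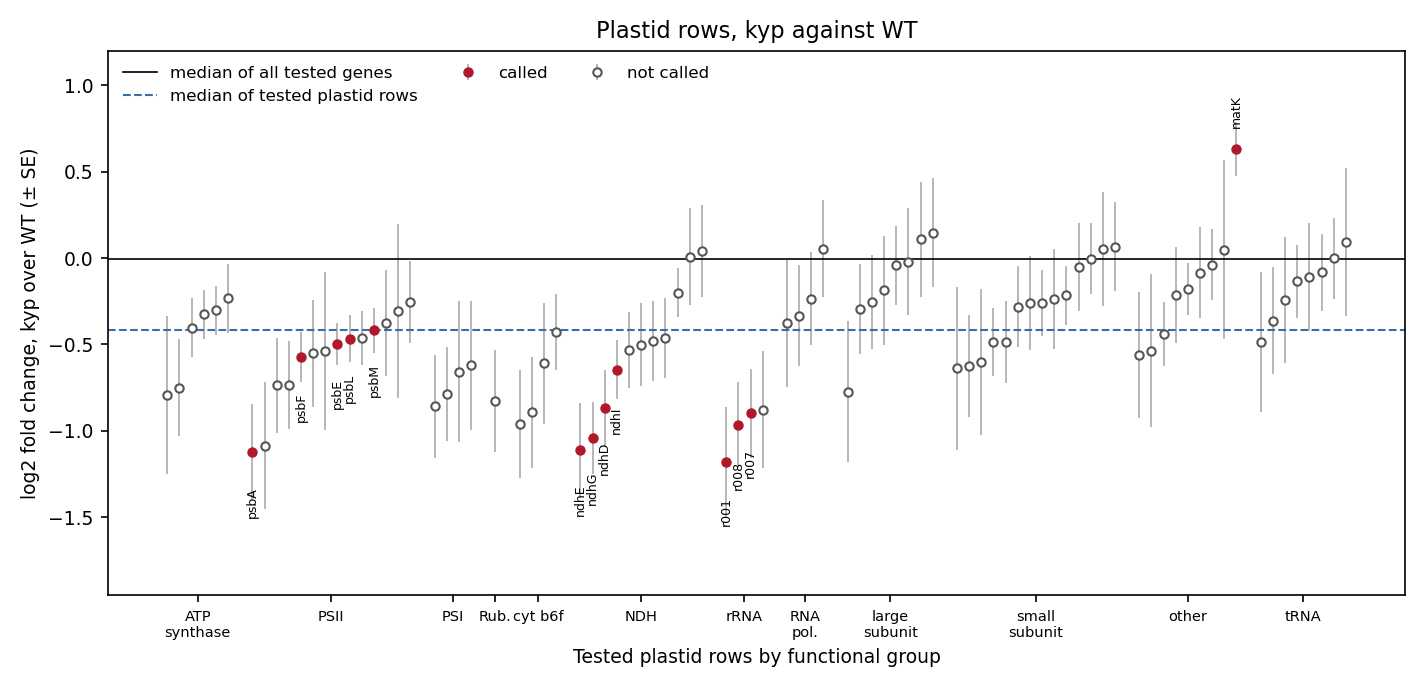
Log2 fold change of *kyp* over WT ± SE for the 87 tested plastid rows, by functional group, with called rows filled and named (r001, r007 and r008 are rRNA rows, and large and small subunit are those of the ribosome). The dashed line is the median of the tested plastid rows (-0.42) and the solid line that of all tested genes (-0.01), and matK is the only called row above 0.

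Photosystem II, which splits water and feeds electrons into the chain, had the most called rows in number, but the groups differ in size. Of its 15 rows 14 were tested, all 14 had a log2 fold change below 0, 5 fell and none rose, and the median was -0.52. Of the tested NDH rows 4 of 11 fell, and of the tested rRNA rows 3 of 4, where 10.2% of all tested genes were called lower. The largest change was that of psbA. Its level was 57.7, 97.4 and 122 CPM in WT and 31.1, 54.1 and 41.5 CPM in *kyp*. All *kyp* libraries lay below all WT libraries, the nearest pair being *kyp* replicate 2 and WT replicate 1. The log2 fold change of psbA was -1.12 ± 0.28 (SE; edgeR adjusted p = 0.0191), and it was -0.79 (edgeR adjusted p = 0.00449) with libraries scaled to their plastid totals. Thus psbA also fell relative to the plastid total, most of which is atpB and atpE. The call of psbA was lost without WT replicate 2, without WT replicate 3, without *kyp* replicate 1 and without *kyp* replicate 3, with adjusted p of at most 0.0667.

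The small photosystem II subunits psbE and psbF, which bind the heme of cytochrome b559, lie in 1 transcription unit with psbL and psbJ. The level of psbE was 27.2, 30.1 and 28.5 CPM in WT and 17.5, 22.3 and 20.7 CPM in *kyp*, which is a narrow spread within each genotype. Its log2 fold change was -0.50 ± 0.12 (SE; edgeR adjusted p = 0.0173), a call lost without WT replicate 2, without *kyp* replicate 3 and with libraries scaled to their plastid totals (log2 fold change -0.20, adjusted p = 0.520). For psbF the level was 23.0, 24.5 and 19.9 CPM in WT and 13.0, 17.4 and 14.9 CPM in *kyp* (log2 fold change -0.57, edgeR adjusted p = 0.0209). The third row, psbL, is named because it completes the unit, a choice made after its values were seen, and fell by 0.47 on the log2 scale (edgeR adjusted p = 0.0354). Over 15 alternative fits, psbE passed the threshold in 12, psbF in 10 and psbL in 8, and none of the 3 did with libraries scaled to their plastid totals. The last row of the unit, psbJ, had a log2 fold change of -0.46 that did not pass the test (edgeR adjusted p = 0.0639). The log2 fold changes of all 4 rows lay between -0.57 and -0.46, and in all 4 the genotypes did not overlap. Their levels per kb ranged from 96.0 to 158 CPM.

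The level of psbM was 51.8, 57.9 and 69.8 CPM in WT and 45.1, 49.2 and 40.1 CPM in *kyp*, a log2 fold change of -0.42 (edgeR adjusted p = 0.0473) at the edge of the threshold, which it passed in 6 of the 15 alternative fits. Apart from psbA, the larger chlorophyll-binding subunits had bigger or like fold changes with more spread and were not called. For psbB, the CP47 antenna protein, the log2 fold change was -0.74 ± 0.28 (SE; edgeR adjusted p = 0.0858). For psbC, the CP43 antenna protein, it was -0.37 (edgeR adjusted p = 0.414), and for psbD, which encodes the D2 partner of D1, it was -0.55 (edgeR adjusted p = 0.230).

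The NDH complex, which returns electrons from photosystem I to the plastoquinone pool, came next. Of its 12 rows 11 were tested, 4 fell and none rose, and the median log2 fold change was -0.50. The rows that fell had low levels, and their genotypes did not overlap. The same held for every called plastid row, and since the test picked them on these same libraries, it is no further support. For ndhG the level was 5.04, 5.91 and 6.93 CPM in WT and 2.82, 2.86 and 2.97 CPM in *kyp*. The log2 fold change of ndhG was -1.04 ± 0.21 (SE; edgeR adjusted p = 0.00721), the lowest adjusted p of all plastid rows, and ndhG was the only called plastid row that passed the threshold in each of the 6 fits with 1 library left out. For ndhE the level was 3.94, 6.08 and 6.93 CPM in WT and 2.96, 2.86 and 2.08 CPM in *kyp* (log2 fold change -1.11, edgeR adjusted p = 0.0196). For ndhI it was 6.46, 6.88 and 7.26 CPM in WT and 4.37, 4.62 and 4.16 CPM in *kyp* (log2 fold change -0.65, edgeR adjusted p = 0.0247). These 3 membrane-arm and connecting subunits are neighbours in a unit that is transcribed from ndhH through ndhA, ndhI, ndhG, ndhE and psaC to ndhD.

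The fold changes were not even along that unit. At its front, ndhH had a log2 fold change of -0.20 and ndhA -0.48, neither called. Farther on, psaC, the iron-sulfur subunit of photosystem I, had a log2 fold change of -0.79 (edgeR adjusted p = 0.0686). The last gene of the unit, ndhD, was the fourth NDH row that fell, with 5.04, 5.64 and 6.93 CPM in WT and 2.68, 3.30 and 3.57 CPM in *kyp* (log2 fold change -0.87, edgeR adjusted p = 0.0207). Over 15 alternative fits, ndhG passed the threshold in 14, ndhD and ndhE in 11 each and ndhI in 8, and with libraries scaled to their plastid totals none of the 4 did. The NDH rows with the highest levels, ndhK and ndhA, were not called. The level of ndhK was 19.9, 20.3 and 28.3 CPM in WT and 12.1, 20.8 and 14.2 CPM in *kyp*, so that the genotypes overlapped. Both rows of ndhB, a gene of the inverted repeat, had log2 fold changes near 0 (0.01 and 0.04). As a share of plastid counts, the NDH rows together held 1.36% ± 0.0588 (SD, n = 3) in WT and 1.18% ± 0.0460 in *kyp*, without overlap.

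The remaining photosynthetic groups had medians well below 0 and no called row. In photosystem I, 4 of 5 rows were tested with a median of -0.72. The level of psaB, a reaction centre subunit, was 42.3, 56.1 and 96.0 CPM in WT and 23.4, 38.6 and 63.1 CPM in *kyp* (log2 fold change -0.62, edgeR adjusted p = 0.263). The other reaction centre gene, psaA, was at 36.1, 48.0 and 97.3 CPM in WT and at 22.1, 34.2 and 57.3 CPM in *kyp* (log2 fold change -0.66, edgeR adjusted p = 0.276). Both varied more than 2-fold among the libraries of a genotype, and they varied together: the ratio of psaA to psaB counts was 0.908 ± 0.0917 (SD, n = 3) in WT and 0.913 ± 0.0303 in *kyp*. The third gene of their unit, rps14, had a log2 fold change of -0.62, close to theirs.

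In the cytochrome b6f complex, 4 of 6 rows were tested with a median of -0.75. The level of petB, which encodes cytochrome b6, was 6.24, 9.43 and 13.3 CPM in WT and 3.24, 5.83 and 6.24 CPM in *kyp* (log2 fold change -0.89, edgeR adjusted p = 0.0747), with the highest *kyp* and the lowest WT library at nearly the same level. The row of petA, cytochrome f, had a log2 fold change of -0.43 (edgeR adjusted p = 0.191). For rbcL the level was 117, 145 and 259 CPM in WT and 70.0, 105 and 117 CPM in *kyp*. The *kyp* values reached the lowest WT value, and the log2 fold change of -0.83 ± 0.29 (SE) was not called (edgeR adjusted p = 0.0734).

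The ATP synthase rows, although they held most of the plastid counts, had a median closer to that of all tested genes than the other photosynthetic groups. All 6 were tested, none was called, and the median log2 fold change was -0.36. The level of atpB was 3811, 3926 and 4707 CPM in WT and 3251, 3693 and 2987 CPM in *kyp*. The genotypes did not overlap, and the log2 fold change was -0.33 ± 0.14 (SE; edgeR adjusted p = 0.129). For atpE it was -0.30 ± 0.14 (edgeR adjusted p = 0.155), for atpA -0.40 (edgeR adjusted p = 0.120) and for atpF -0.23. The rows of atpH (-0.75, edgeR adjusted p = 0.0860) and atpI (-0.79, edgeR adjusted p = 0.244) had larger changes. Since atpB and atpE are so abundant, they supplied most of the difference in plastid share: without them, plastid rows were 0.192% ± 0.0558 (SD, n = 3) of library counts in WT and 0.148% ± 0.0131 in *kyp*, with overlap and an exact permutation p of 0.3. The ratio of *kyp* to WT was 0.770 in both cases.

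The polymerase and ribosomal protein genes had medians closer to 0 than the photosynthetic groups. The 4 subunits of the bacterial-type RNA polymerase had a median log2 fold change of -0.28, and none was called. Their levels per kb were low, from 0.282 CPM for rpoC2 to 14.8 CPM for rpoA, the alpha subunit, which lies at the end of a ribosomal protein unit rather than with the other 3. The level of rpoA was 10.2, 16.7 and 23.4 CPM in WT and 9.86, 13.9 and 15.9 CPM in *kyp*, so the genotypes overlapped (edgeR adjusted p = 0.443). For rpoC1 the log2 fold change was 0.06 (edgeR adjusted p = 0.910).

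Among the proteins of the small ribosomal subunit, 14 of 15 rows were tested, none was called, and the median was -0.26. Among those of the large subunit, 8 of 11 were tested, none was called, and the median was -0.11. Of the 2 rows with the highest mean level in each subunit, rps3 had a log2 fold change of 0.07, the protein-coding row of rps19 0.05, rpl32 0.15 and rpl16 -0.02. Both rows of rps7, a gene of the inverted repeat with WT levels of up to 20.1 CPM, had -0.48 and were not called. The level of rpl32 was 13.4, 17.2 and 35.4 CPM in WT and 20.8, 25.6 and 26.1 CPM in *kyp*, so that all *kyp* libraries lay inside the WT range. Without WT replicate 3 and *kyp* replicate 1 its log2 fold change was 0.76 (edgeR adjusted p = 0.0302). The second row of rps19, a pseudogene, had 58 counts in all and was not tested.

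The rRNA rows had the lowest group median, -0.93. Of 8 rows, which the gene table leaves without names, 4 were tested and 3 fell, where 10.2% of all tested genes were called lower. Whether rRNA was removed or poly(A) RNA selected is not given in the sources used here. The part of library preparation and of the mapping quality filter in these low counts was not tested. They form pairs of equal length, as the inverted repeat would give, and the tested rows all had log2 fold changes below 0. In the pair of 1500 bases, LyesC2r008 had 11.4, 15.6 and 22.3 CPM in WT and 6.90, 9.02 and 9.12 CPM in *kyp* (log2 fold change -0.97, edgeR adjusted p = 0.0224). Its copy LyesC2r001 had 5.15, 4.58 and 5.25 CPM in WT and 1.13, 2.09 and 3.17 CPM in *kyp* (log2 fold change -1.18, edgeR adjusted p = 0.0276). In the pair of 2810 bases, LyesC2r007 had 22.5, 34.8 and 50.8 CPM in WT and 17.3, 20.02 and 20.4 CPM in *kyp* (log2 fold change -0.90, edgeR adjusted p = 0.0353). Its copy LyesC2r002 was not called (log2 fold change -0.88, edgeR adjusted p = 0.0922). The call of LyesC2r008 held in 11 of 15 alternative fits, that of LyesC2r007 in 8 of 15 and that of LyesC2r001 in 8 of 14, with most losses where 1 library was left out. The copies share sequence, so the split of reads between them is uncertain and the 4 rows are not 4 independent measurements.

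The single plastid gene that rose was matK, which encodes a maturase that helps splice plastid introns and lies inside the intron of the trnK-UUU gene. Its level was 85.8, 97.6 and 128 CPM in WT and 183, 149 and 151 CPM in *kyp*. All *kyp* libraries lay above all WT libraries. The log2 fold change was 0.63 ± 0.16 (SE; edgeR adjusted p = 0.0186), and 0.97 (adjusted p = 1.8e-04) with libraries scaled to their plastid totals. The call was lost without WT replicate 1, without WT replicate 2 and without *kyp* replicate 1 (largest adjusted p 0.0733), whereas the log2 fold change stayed between 0.51 and 0.97 over the 15 alternatives fixed with the design. The exon row of trnK-UUU that was tested, LyesC2t003, had a log2 fold change of -0.11 (edgeR adjusted p = 0.829), and the other exon row, LyesC2t002, had 58 counts in all and was not tested.

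In the gene order of the table, psbA is the next gene to matK apart from a trnK-UUU exon, so the called rows with the opposite directions are neighbours. The ratio of matK to psbA counts was 1.49, 1.00 and 1.05 in WT and 5.88, 2.75 and 3.65 in *kyp*. It is a ratio within a library and does not depend on the scaling between libraries, and every *kyp* value was above every WT value. The means were 1.18 ± 0.267 (SD, n = 3) and 4.09 ± 1.61. The pair was chosen after both calls were known, so this is a description without a test.

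**Figure D5:**
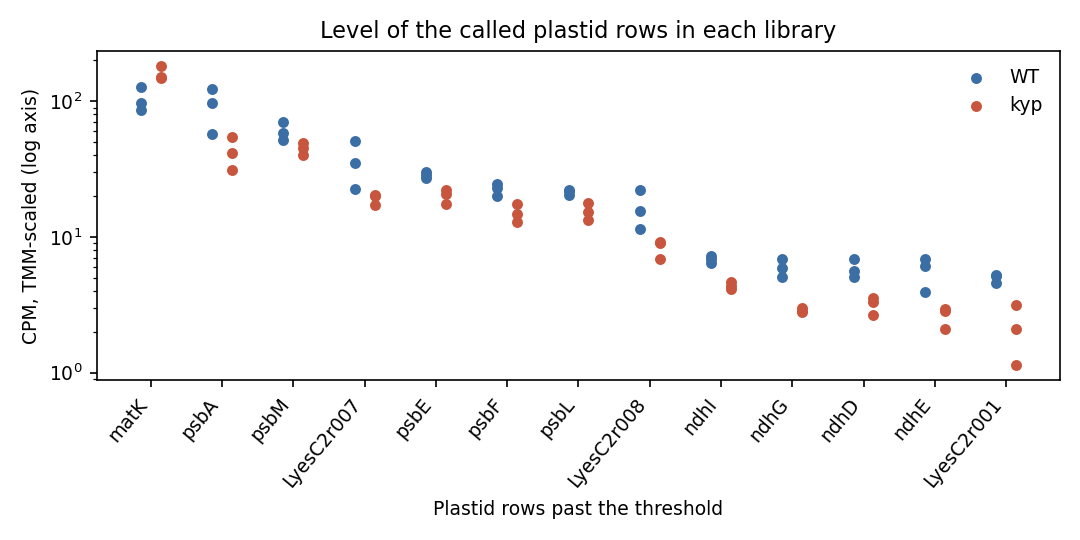
Level of the 13 called plastid rows in each library, in TMM-scaled CPM on a log axis, ordered by WT mean. All *kyp* points lie above the WT points for matK and below them for the 12 other rows, and the levels run from 183 CPM (matK in a *kyp* library) down to 1.13 CPM (LyesC2r001 in a *kyp* library).

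The other proteins formed a group of 14 rows, of which 9 were tested and matK alone was called, with a median log2 fold change of -0.18. Their fold changes were uneven: accD, a subunit of acetyl-CoA carboxylase, had -0.56, ycf4, an assembly factor of photosystem I, -0.54 and cemA, an envelope membrane protein, -0.44, none of them called, while the rows with more counts were closer to 0. The level of clpP was 178, 234 and 281 CPM in WT and 205, 201 and 205 CPM in *kyp* (log2 fold change -0.18, edgeR adjusted p = 0.425). The protein-coding row of ycf1 was at 121, 142 and 228 CPM in WT and at 160, 153 and 166 CPM in *kyp* (log2 fold change -0.04, edgeR adjusted p = 0.916). For ycf3, another such assembly factor, the log2 fold change was -0.09 (edgeR adjusted p = 0.846). In clpP, ycf1 and ycf3 the *kyp* libraries all lay inside the WT range and were far closer to each other than the WT libraries were. As a share of plastid counts, the group held 7.74% ± 0.860 (SD, n = 3) in WT and 10.2% ± 1.11 in *kyp*, without overlap. This includes matK, which alone held 1.40% ± 0.0572 in WT and 2.75% ± 0.465 in *kyp*. Whether the genotypes would stay apart without matK was not tested.

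The tRNAs carry amino acids to the plastid ribosome, and their rows were the least covered. Of the 45 rows, 17 had 0 counts in every library, 29 had at most 3 counts in every library, and 8 were tested. A count of 0 allows up to 3 counts, or 0.272 to 0.412 CPM by library, so a count of 0 does not show that these tRNAs were absent. The part of library preparation and of the mapping quality filter in these low counts was not tested. None of the 8 was called, and their median log2 fold change was -0.12. The row with the most counts was trnD-GUC, with 14.7, 24.1 and 27.9 CPM in WT and 21.4, 19.9 and 19.5 CPM in *kyp*. Next came trnY-GUA with 9.64, 15.4 and 19.1 CPM in WT and 14.6, 13.7 and 13.4 CPM in *kyp*. In both rows the genotypes overlapped.

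All 12 functional groups had a median log2 fold change below 0, but without WT replicate 3 only 9 did, the medians then being 0.09 for the other proteins, 0.14 for the large ribosomal subunit and 0.10 for tRNA. The photosynthetic complexes, Rubisco and the rRNA rows had medians between -0.93 and -0.36, and the RNA polymerase, ribosomal protein, tRNA and other groups between -0.28 and -0.11. These are descriptions of 87 rows from the same 6 libraries, and the difference between groups was not tested. With libraries scaled to their plastid totals, 7 of the 12 medians were below 0, those of both photosystems, cytochrome b6f, ATP synthase, NDH, Rubisco and rRNA, from -0.59 for rRNA to -0.05 for ATP synthase. The other 5 were above 0, from 0.05 for the RNA polymerase and the small ribosomal subunit to 0.22 for the large subunit and tRNA.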

How the data were processed

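The authors deposited counts, whole numbers of reads per gene without normalization, for 6 leaf libraries (3 WT, 3 *kyp*). The paper's methods describe mapping to the M82 genome with Bowtie2 and removal of PCR duplicates and alignments of low mapping quality, which would lower counts of highly covered genes and of repeats. The submitters' processing notes list Trimmomatic 0.38, HISAT2 2.2.1, SAMtools 1.9 and featureCounts, so the aligner is uncertain. The strand setting, annotation release and any rRNA removal or poly(A) selection, on which the share of plastid RNA depends, are not given in the sources used here.

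All 142 plastid identifiers matched locus tags of the RefSeq gene table of assembly SLM_r2.1, which gave symbols and gene lengths, and none of the 35607 nuclear identifiers matched. The rows follow from the identifiers, but the choice to describe them, and the gene groups, were made with earlier results of these data known.

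Genotypes were compared in R 4.3.3 with edgeR 4.0.16 (quasi-likelihood test, TMM factors of 0.964 to 1.03, filterByExpr with a minimum count of 10 and a minimum total of 15), with Benjamini-Hochberg adjustment over all 20154 genes tested and a threshold of 0.05. Shares were compared by two-sided exact permutation tests, and 95% Wilson intervals of the plastid share, at most 0.00613 percentage points to each side, cover counting error only. Biological replicates differed by more than sampling noise. Alternatives were DESeq2 1.42.0, limma-voom (limma 3.58.1), other scalings and filters, a replicate block and leaving out libraries.

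The text names the 10 plastid rows with the most counts, up to 10 called rows in each direction by fold change and the 2 rows of highest mean CPM in each functional group, with all rows of their symbols. A few further rows that belong to their units or groups are given for context and were chosen after their values were seen.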

Additional observations from a re-analysis of the deposited data

How the results depend on the processing

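Of the 13 called plastid rows, 3 were called with libraries scaled to their plastid totals (2 lower, 1 higher), where the median of the plastid rows was -0.0956, that of all tested genes 0.29, and 7 of the 12 group medians were below 0. Other settings gave 11 to 19 calls and a plastid median between -0.48 and -0.36: 15 with DESeq2, 11 with limma-voom, 12 with upper-quartile factors, 19 with library totals alone, 13 with nuclear rows alone setting library size, 16 without a filter and 11 with at least 10 counts in every library. Leaving out 1 library gave 1 to 16 calls, of them 0 to 2 higher and 1 to 15 lower, with a plastid median of -0.53 to -0.19 and 9 to 12 group medians below 0, and, chosen after seeing the data, leaving out the libraries of highest and lowest plastid share gave 2 calls, 2 higher and 0 lower, with a median of -0.135. The replicate block gave 21 calls, 20 of them lower. Same-numbered libraries had correlations of 0.216, 0.0664 and -0.0799 in their deviations from the group means over all tested genes. Over the tested plastid rows these correlations were 0.218, 0.145 and 0.196. In neither set did every library correlate best with its own number. Whether same-numbered libraries were handled together cannot be told from 3 such values and was not tested. Without atpB, the plastid share differed by -0.0746 percentage points between *kyp* and WT. The other alternatives left it between -0.221 and -0.106. The differences in spread, all within the replicate spread, had no stable sign: that of the first gene (-0.572 percentage points) was 0.849 per kb of gene length and -2.12 to 0.993 with 1 library left out, that of the first 5 (-0.141) was 0.953 when ranked within each library, 0.0292 per kb and -1.22 to 1.11 with 1 library left out, and that of the first 10 (0.673) was -0.0392 to 1.49 with 1 library left out. The planned division by coding length was not run, because no protein lengths were used here, and gene length replaced it.

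No called row changed direction: of 191 values over the called rows other than psbL and their alternatives, 123 kept and 68 lost the call. Of 336 values over the named rows that were not called, 13 passed the threshold and 36 changed sign. Scaled to plastid totals, the log2 fold changes were 0.205 for trnD-GUC, 0.259 for trnY-GUA, 0.281 for ycf3, 0.0136 for atpE, 0.154 for clpP, 0.0147 for rpoA, 0.349 for rpl16 and 0.319 for ycf1. Without the libraries of highest and lowest plastid share they were 0.0266 for trnD-GUC, 0.114 for trnY-GUA, 0.0586 for psaB, 0.131 for psaA, 0.292 for ycf3, 0.143 for rpoA, 0.462 for rpl16 and 0.286 for ycf1. With limma-voom they were 0.00905 for ycf3, 0.106 for rpl16 and 0.0148 for ycf1, and with the replicate block 0.0531 for rpl16 and 0.0126 for ycf1. With 1 library left out, they ranged from -0.246 to 0.208 for rpoC1, from -0.361 to 0.0614 for trnD-GUC, from -0.311 to 0.146 for trnY-GUA, from -0.35 to 0.298 for ycf3, from -0.32 to 0.41 for rpl16, from -0.174 to 0.421 for rps3, from -0.243 to 0.538 for rps19, from -0.112 to 0.667 for rpl32 and from -0.217 to 0.284 for ycf1, the last 8 with the highest value without WT replicate 3. The cause of these changes was not tested. At this depth, 55 of the 142 rows were too low to test.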

Other observations

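Protein-coding plastid genes listed on a pair of rows, as copies of the inverted repeat, mostly had low levels, with both rows of rps7 (30.7 and 19.5 CPM per kb) as the exception. Their median level was 1.5 CPM per kb of gene length over 12 rows, with rps12 left out because its rows share 1 exon entry, beside 14.8 CPM per kb over the 73 other protein-coding rows. The longest plastid gene, ycf2, of 6837 bases, had 4 counts on one row and 1 on the other over all 6 libraries, whereas the protein-coding row of ycf1, of 5676 bases, had 8951. The copies did not share their counts evenly. In the pair of rRNA rows of 2810 bases, LyesC2r007 had 1566 counts and LyesC2r002 had 285. In the pair of 1500 bases, LyesC2r008 had 704 and LyesC2r001 had 205. For rps7, the rows held 818 and 513 counts, and for ndhB 161 and 113. The part of the mapping quality filter in these values was not tested.

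Levels differed within known transcription units as well as between them. In psaA-psaB-rps14 the highest level per kb was 3.11 times the lowest, in psbD-psbC-psbZ 1.49 times and in atpB-atpE 1.2 times. In ndhC-ndhK-ndhJ it was 30.2 times, from 1.11 CPM per kb for ndhJ to 33.5 for ndhC. Unit membership came from land plants in general and was not measured here.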
